A study of Mus musculus with 36 samples.

Results

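The 7 genes described here encode proteins that dampen signals of the transforming growth factor β (TGF-β) family: the inhibitory Smads Smad6 and Smad7, the ubiquitin ligases Smurf1 and Smurf2, and the membrane proteins Bambi, Pmepa1 and Ldlrad4. They were chosen by gene symbol, as the single-symbol probe sets of the array that carry one of these names. All 7 were measured, out of 19938 genes tested. Smurf2 had 2 such probe sets, of which the one with the higher mean over all arrays was used, and each of the others had 1.

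RNA was taken from mouse multipotent progenitors (MPP), which can give rise to the blood lineages, and from common dendritic cell progenitors (CDP), a later stage restricted to the dendritic cell lineage. The 2 populations were derived from bone marrow, expanded in culture with cytokines and isolated by flow sorting, so the untreated cells also came out of cytokine culture. The cells were left untreated (0 h) or received recombinant human TGF-β1 at 10 ng/ml for 2, 4, 8, 12 or 24 h. Each of the 12 groups had 3 arrays, 36 in all. Strain, age and any genetic alteration of the mice are not given in the sources used here. None of the 36 arrays came from untreated cells at a later time, so TGF-β1 and time in culture cannot be told apart in any change against 0 h.

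As background, TGF-β binds a pair of receptor kinases that phosphorylate the receptor-activated Smads, which join Smad4 and act on genes in the nucleus. Inhibitory Smads occupy the activated receptor and bring Smurf ligases to it, so that the receptor is ubiquitinated and removed. Bambi resembles a type I receptor but lacks the kinase domain, and the related membrane proteins Pmepa1 and Ldlrad4 bind receptor-activated Smads and keep them from the receptor. Several of these genes are known targets of the pathway in other cells, which makes them a negative feedback. TGF-β1 is also known as a cytokine that epidermal Langerhans cells, a kind of dendritic cell, depend on.

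Levels are log2 values made by the RMA method, in which 1 unit is a doubling. Changes are log2 fold changes ± standard error (SE) from limma with 3 arrays per group. A gene was called at an adjusted p under 0.01 together with a change of at least 1 unit, which is 2-fold. Levels of different genes were not compared with each other, since each probe set has its own scale.

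Before the results, some arrays stood apart and the cell populations differed in more than their names. The mean of 7 measured interferon-stimulated genes was 12.8 in CDP at 2 h replicate 3 against 8.13 and 8.15 in the other two, and 8.95 in untreated MPP replicate 3 against 7.73 and 7.69. Other CDP arrays were raised too, with 10.7 in untreated replicate 3, 10.7 and 10.2 in replicates 1 and 3 at 4 h, 9.52 and 9.15 in replicate 3 at 8 and 12 h, and 9.52 and 10.1 in replicates 1 and 3 at 24 h. Of the CDP markers, Itgax and Siglech were called higher in untreated CDP than in untreated MPP, while Csf1r differed by 0.15 (adjusted p = 0.332). Id2, Cd68, Zbtb46, Irf8 and Batf3 were higher by 0.32 to 0.62, at an adjusted p under 0.01 but under 2-fold. Of the 7 MPP markers, Kit, Cd34, Gata2 and Myb were called lower in CDP, Hoxa9 and Meis1 did not pass, and Flt3, which is on both lists, was called higher (2.14 ± 0.22). The CDP markers averaged 9.85 to 9.97 in untreated MPP and 10.40 to 10.63 at 24 h, and 10.97 to 11.02 and 11.64 to 11.73 in CDP. The MPP markers averaged 10.87 to 11.05 and 11.19 to 11.36 in MPP, and 10.19 to 10.27 and 10.58 to 10.87 in CDP. The part of these shifts in the changes below was not tested. The 6 neutrophil markers averaged 11.3 to 12.7 in MPP and 7.48 to 7.94 in CDP, and the 4 mast cell markers 8.97 to 9.63 and 6.16 to 6.74. In such bulk samples, fewer cells of a type and less RNA per cell cannot be told apart, and the part of these other cells in the levels below was not tested. Calls that changed without the 2 interferon-high arrays named first, which were the highest of CDP and of MPP, are given with and without them.

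In outline, 3 of the 7 genes were called higher in MPP at each time, and they were Smad7, Pmepa1 and Ldlrad4 throughout. Of all genes tested, 0.226% were called higher at 2 h, 0.281% at 4 h, 0.461% at 8 h, 0.507% at 12 h and 0.717% at 24 h. In CDP 4 of the 7 were called higher at each time, against 0.266% of all genes at 2 h, 0.431% at 4 h, 0.722% at 8 h, 0.858% at 12 h and 1.35% at 24 h. Smad7, Pmepa1 and Ldlrad4 were again among them throughout, joined by Smad6 at 2 and 4 h and by Smurf1 at 8, 12 and 24 h. None of the 7 was called lower at any time.

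Without the 2-fold minimum, 6 of the 7 were higher at an adjusted p under 0.01 at every time in both cell types, all except Bambi. The share of all genes that passed in that direction without the minimum was 2.26%, 2.98%, 5.46%, 4.73% and 5.61% in MPP and 1.12%, 2.33%, 4.62%, 5.58% and 7.83% in CDP, from 2 to 24 h. The median change of the 7 genes at 2 h was 0.90 in MPP and 1.38 in CDP, beside 0.02 and -0.01 over all genes. At 24 h it was 0.61 in MPP and 1.74 in CDP, beside -0.01 and 0.00. Over the whole time course, tested with limma's moderated F-test, 3 of the 7 were called in MPP and 5 in CDP, against 1.33% and 3.43% of all genes.

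**Figure D1:**
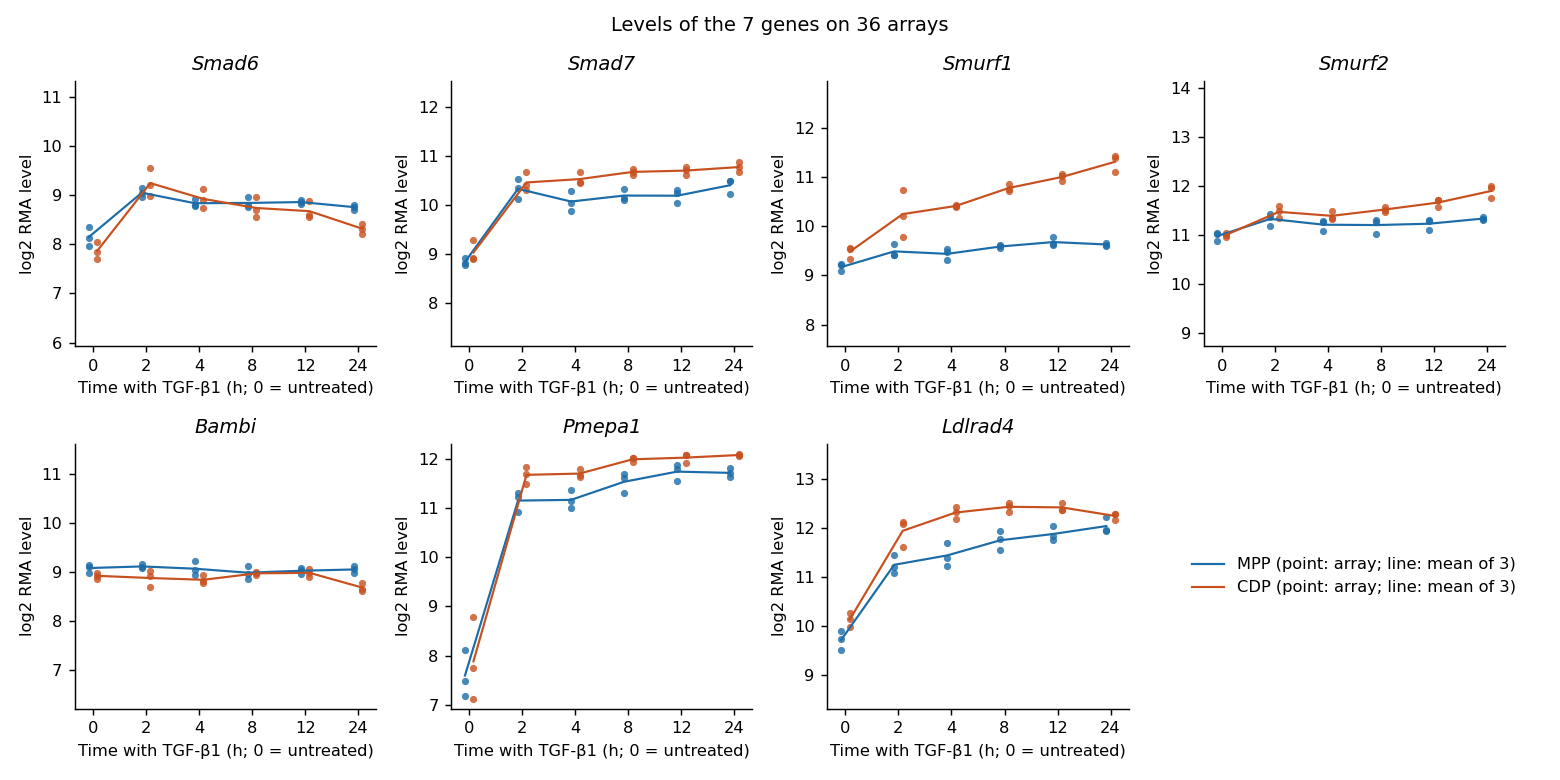
Each panel plots the log2 RMA level of 1 gene against time with TGF-β1 in hours (0 is untreated; times are evenly spaced, not to scale), with a point for each array and a line through the mean of 3 arrays, MPP in blue and CDP in orange. All panels span the same number of log2 units, so slopes can be compared but heights cannot; Pmepa1 climbed most, Bambi stayed level, Smad6 peaked at 2 h, and the Smurf1 lines of the 2 cell types moved apart.

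Smad6 and Smad7 are the inhibitory Smads, with Smad6 known mainly for its action on bone morphogenetic protein receptors and Smad7 for its action on the TGF-β receptor as well. In CDP the level of Smad6 was 7.70, 7.85 and 8.06 on the untreated arrays, 8.98, 9.21 and 9.55 at 2 h, and 8.22, 8.32 and 8.41 at 24 h. The 3 sets of arrays did not overlap, and the 2 h arrays were the highest of the course on average. The change of Smad6 against 0 h in CDP was 1.38 ± 0.08 at 2 h (2.60-fold, adjusted p = 1.11e-07), 1.06 ± 0.08 at 4 h, 0.87 at 8 h, 0.81 at 12 h and 0.45 at 24 h (adjusted p = 0.000383). Without the interferon-high array, which was the highest at 2 h, the 2 h change of Smad6 was 1.32 (adjusted p = 4.09e-07). The call at 4 h had little margin, as the change was 0.98 without replicate 1, and the small change at 24 h did not pass without the replicate block (adjusted p = 0.0379).

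Smad6 in MPP took a similar but shallower course. Its level was 7.96, 8.13 and 8.35 on untreated MPP arrays, 8.96, 9.05 and 9.14 at 2 h, and 8.71, 8.76 and 8.80 at 24 h. All treated MPP arrays lay above all untreated ones. The change was 0.90 ± 0.07 at 2 h (adjusted p = 4.35e-07) and 0.61 ± 0.07 at 24 h (adjusted p = 7.29e-06), so it stayed under 2-fold throughout.

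Between 2 and 24 h Smad6 declined. It was lower at 24 h than at 2 h by -0.93 ± 0.08 in CDP (adjusted p = 5.26e-07) and by -0.29 ± 0.07 in MPP (adjusted p = 0.00752), in 3 of 3 same-numbered pairs each, and neither change reached 2-fold. Of all genes, 10.2% were lower in CDP and 4.14% in MPP by this rule without a minimum fold. Without the interferon-high CDP array at 2 h the decline in CDP was -0.87 (adjusted p = 2.49e-06). In MPP the decline did not pass an adjusted p of 0.01 without the replicate block (adjusted p = 0.0468) or without any 1 of the 3 replicate numbers.

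The RefSeq window around the start of Smad6 is shown because Smad proteins are known to bind the letters AGAC or their complement GTCT. It runs from 250 bases before the start to 50 after it (mouse build GRCm38.p6, chr9:64022010-64022309, minus strand). Among the members, windows were read for Smad6, Smurf1 and Smurf2 only. Capitals mark each AGAC or GTCT.
Smad6: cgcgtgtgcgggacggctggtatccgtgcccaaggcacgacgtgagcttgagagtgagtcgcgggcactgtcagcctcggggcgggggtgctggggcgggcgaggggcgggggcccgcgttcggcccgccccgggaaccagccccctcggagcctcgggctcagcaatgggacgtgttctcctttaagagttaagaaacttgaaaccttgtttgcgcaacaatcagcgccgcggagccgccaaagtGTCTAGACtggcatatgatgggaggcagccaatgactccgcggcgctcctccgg
The window holds 2 such copies, which together make the palindrome GTCTAGAC across the annotated start. Of 32851 windows of this length in the same table, 88.0% hold AGAC or GTCT at least once and 64.8% hold 2 copies or more. The palindrome, which contains 1 copy of each, is in 70 windows (0.213%). These matches describe the letters and are not measured binding. The windows of Smad7, Bambi, Pmepa1 and Ldlrad4 were not read, so whether the palindrome sets Smad6 apart from them was not tested.

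Smad7, which blocks the TGF-β receptor, rose early and stayed high. In MPP its level was 8.81, 8.92 and 8.77 on untreated arrays, 10.12, 10.33 and 10.53 at 2 h, and 10.48, 10.22 and 10.49 at 24 h. In CDP the arrays read 8.89, 9.28 and 8.92 untreated, 10.40, 10.67 and 10.30 at 2 h, and 10.67, 10.76 and 10.87 at 24 h. In neither cell type did a treated array overlap with an untreated one.

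The change of Smad7 in MPP was 1.49 ± 0.09 at 2 h (2.81-fold, adjusted p = 6.61e-08), lowest at 4 h with 1.23 and highest at 24 h with 1.56. In CDP it went from 1.43 ± 0.08 at 2 h (2.69-fold, adjusted p = 1.11e-07) to 1.74 ± 0.08 at 24 h. At 2 h the change had thus reached 95.3% of its 24 h size in MPP and 82.0% in CDP, on the log2 scale. The further rise of Smad7 from 2 to 24 h in CDP was 0.31 ± 0.08 (adjusted p = 0.00774), under 2-fold. It did not pass an adjusted p of 0.01 without the interferon-high array at 2 h (0.25, adjusted p = 0.0435) or without the replicate block (adjusted p = 0.0518). In MPP the change from 2 to 24 h was 0.07, with a 95% interval of -0.13 to 0.28.

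**Figure D2:**
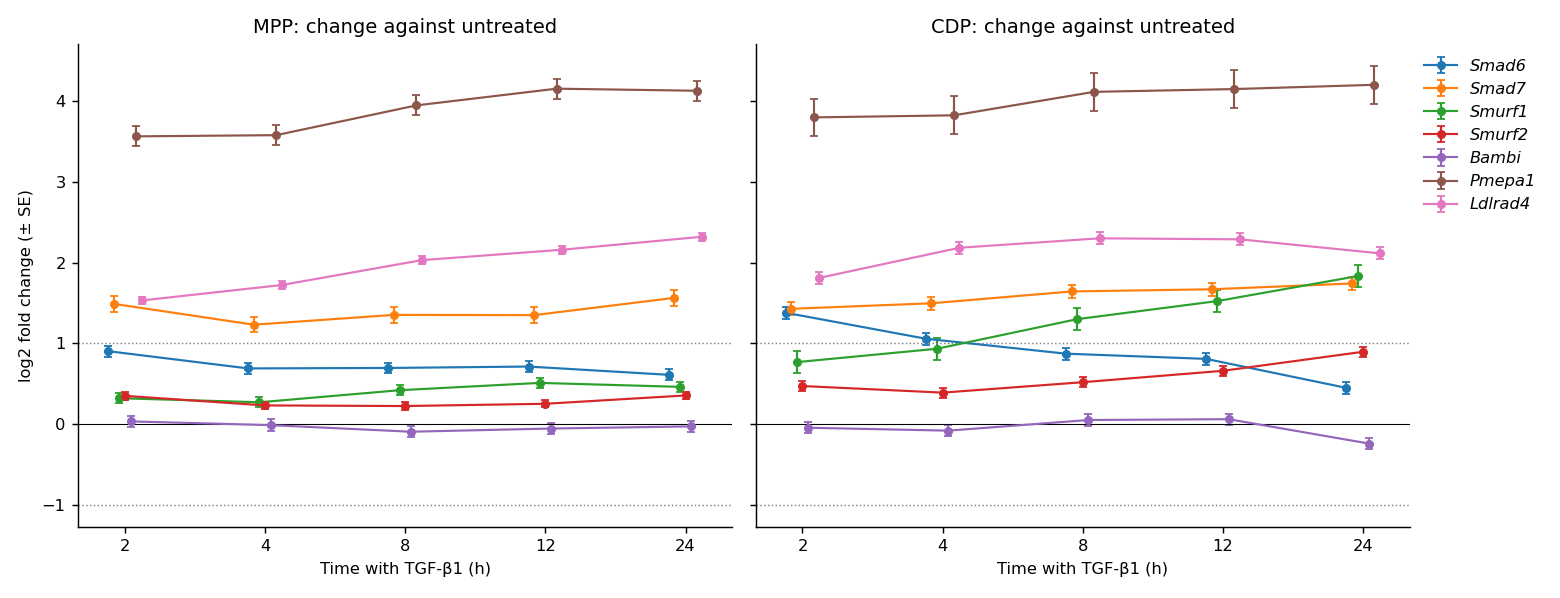
The log2 fold change against untreated cells (vertical axis, ± SE) is plotted at 2, 4, 8, 12 and 24 h for the 7 genes, with MPP on the left and CDP on the right; dotted lines mark 2-fold. Pmepa1 and Ldlrad4 lie highest in both cell types, whereas Smad6 falls and Smurf1 climbs across the CDP panel, from 0.77 at 2 h to 1.83 at 24 h.

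Smurf1 and Smurf2 are HECT-type ubiquitin ligases that inhibitory Smads bring to the receptor. For Smurf1 the CDP arrays read 9.34, 9.54 and 9.57 untreated, 9.78, 10.22 and 10.75 at 2 h, and 11.39, 11.11 and 11.44 at 24 h. The 2 h arrays were widely spread (SD 0.48), and the highest of them was the interferon-high array. Each later set lay above the untreated one, and at 4, 8 and 12 h the arrays of a group were close together, at 10.39 to 10.44, 10.71 to 10.87 and 10.92 to 11.07.

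The change of Smurf1 in CDP was 0.77 ± 0.14 at 2 h (adjusted p = 0.00485), 0.93 ± 0.14 at 4 h, 1.30 ± 0.14 at 8 h (2.46-fold, adjusted p = 1.49e-05), 1.52 at 12 h and 1.83 ± 0.14 at 24 h (3.56-fold, adjusted p = 1.60e-07). Without the interferon-high array at 2 h the 2 h value was 0.55 (adjusted p = 0.00709). Raised arrays are also among the untreated and 24 h groups, and the 24 h value was between 1.72 and 1.94 when any 1 array of these was left out and 1.81 without replicate 3 at all times. The 2 h value was not past an adjusted p of 0.01 without the replicate block (adjusted p = 0.0209).

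From 2 to 24 h Smurf1 was the 1 member of 7 called in CDP, with a rise of 1.07 ± 0.14 (adjusted p = 4.34e-05). Of all genes, 0.918% were called higher in that comparison. The rise was 1.28 without the interferon-high array, and it fell under 2-fold, to 0.86 and 0.95, without CDP replicate 1 at 2 h or at 24 h. None of the 7 was called between 2 and 24 h in MPP, where 0.602% of all genes were called in either direction.

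In MPP Smurf1 rose far less. Its level was 9.08, 9.22 and 9.20 on untreated arrays, 9.41, 9.42 and 9.64 at 2 h, and 9.66, 9.61 and 9.62 at 24 h. The treated arrays lay above the untreated ones at every time, by small steps. The change ranged from 0.27 at 4 h to 0.51 at 12 h (1.42-fold, adjusted p = 2.36e-05). The small changes at 2 and 4 h did not pass without the replicate block (adjusted p = 0.0184 and 0.0416) or without the interferon-high array of untreated MPP (adjusted p = 0.0152 and 0.0317).

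Smurf2, the closest relative of Smurf1, had the same order of the cell types on a smaller scale. The CDP arrays read 11.00, 11.04 and 10.95 untreated, 11.48, 11.58 and 11.35 at 2 h, and 11.74, 11.99 and 11.95 at 24 h, with no overlap between these sets. The change in CDP was 0.47 ± 0.06 at 2 h (adjusted p = 0.000384), 0.39 at 4 h and 0.90 ± 0.06 at 24 h (1.86-fold, adjusted p = 7.10e-08), so it was never called. From 2 to 24 h it rose by 0.42 ± 0.06 in CDP (adjusted p = 0.000127).

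In MPP Smurf2 read 11.02, 11.03 and 10.88 untreated and 11.36, 11.33 and 11.31 at 24 h. The change of Smurf2 in MPP lay between 0.22 and 0.35 at all times, with adjusted p from 3.51e-05 to 0.00352. Without the replicate block none of these 5 changes passed (adjusted p = 0.0154 to 0.215), so whether Smurf2 changed in MPP depends on that choice. The other probe set of Smurf2 tracked the main one over the 36 arrays (r = 0.90, a description) and changed by 0.79 ± 0.11 in CDP at 24 h (adjusted p = 5.94e-05) and by 0.35 ± 0.06 in MPP (adjusted p = 0.000519). It did not pass in CDP at 2, 4 and 8 h (0.51, 0.41 and 0.38, adjusted p = 0.0151, 0.0292 and 0.0282), in MPP at 4 h (adjusted p = 0.0134) or between 24 and 2 h in CDP (0.28, adjusted p = 0.0801), where the main one did.

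The RefSeq windows at the starts of both ligases, the other members whose windows were read, are printed for comparison with Smad6. Without a minimum fold, both ligases rose further between 2 and 24 h in CDP, and so did Smad7 and Ldlrad4, whose windows were not read. Any link between the letters and the time courses was not tested. Both printed windows lie on the minus strand of build GRCm38.p6, at chr5:144965781-144966080 for Smurf1 and chr11:106920666-106920965 for Smurf2. Capitals mark AGAC or GTCT and, in Smurf2, the GC-rich letters GGCGCC, another known Smad-binding motif.
Smurf1: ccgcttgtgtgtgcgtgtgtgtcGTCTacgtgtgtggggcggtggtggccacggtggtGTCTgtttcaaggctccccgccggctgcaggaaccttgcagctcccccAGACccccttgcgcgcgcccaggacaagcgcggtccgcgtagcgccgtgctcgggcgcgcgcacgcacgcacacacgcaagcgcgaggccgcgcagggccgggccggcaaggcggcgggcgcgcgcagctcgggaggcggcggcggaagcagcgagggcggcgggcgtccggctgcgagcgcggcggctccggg
Smurf2: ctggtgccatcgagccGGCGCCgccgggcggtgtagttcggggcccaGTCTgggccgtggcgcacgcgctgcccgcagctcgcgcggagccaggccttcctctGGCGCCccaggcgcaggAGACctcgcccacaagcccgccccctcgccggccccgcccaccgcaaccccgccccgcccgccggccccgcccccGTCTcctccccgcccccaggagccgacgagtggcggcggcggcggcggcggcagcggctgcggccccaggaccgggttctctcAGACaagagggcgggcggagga
Smurf1 holds 3 copies of AGAC or GTCT and Smurf2 holds 4, numbers reached by 39.6% and 19.9% of all windows. The longer form CAGACA or TGTCTG, which contains 1 copy of the shorter, occurs 1 time in each and not in Smad6, and 21.0% of all windows hold it. GGCGCC is found 2 times in Smurf2, in neither of the other windows, and in 11.9% of all windows. The palindrome found in Smad6 is in neither Smurf window. Whether it occurs at the starts of Smad7, Bambi, Pmepa1 or Ldlrad4 was not tested. The windows are rich in G and C, with 66.3% in Smad6, 76.3% in Smurf1 and 80.3% in Smurf2 beside a median of 52.7% over all windows.

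Bambi, the receptor-like protein without a kinase, did not pass the test at any time in either cell type. In MPP it read 9.11, 9.16 and 8.99 untreated and 8.98, 9.06 and 9.13 at 24 h, with overlap at all 5 times. In CDP it read 8.93, 8.87 and 8.99 untreated and 8.61, 8.78 and 8.67 at 24 h, and only at 24 h did the arrays not overlap. The change at 24 h in CDP was -0.24 ± 0.07 (95% interval -0.39 to -0.09, adjusted p = 0.0168).

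The changes of Bambi at the other times lay between -0.09 and 0.06 in both cell types. In MPP the 95% intervals were equally wide at all times and reached lowest at 8 h, to -0.25, so changes of that size are not excluded by these arrays. The CDP value at 24 h passed an adjusted p of 0.01 without untreated CDP replicate 2 (-0.30, adjusted p = 0.00761) and without the 2 interferon-high arrays, neither of which is in this comparison, so that only its error could move (adjusted p = 0.00554), but stayed well under 2-fold.

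Pmepa1, a membrane protein that sequesters receptor-activated Smads, changed most among the 7. In MPP it read 8.11, 7.18 and 7.48 untreated, 11.24, 10.93 and 11.30 at 2 h, and 11.82, 11.63 and 11.72 at 24 h. In CDP it read 7.74, 8.79 and 7.12 untreated, 11.51, 11.85 and 11.69 at 2 h, and 12.09, 12.06 and 12.11 at 24 h. The untreated arrays were widely spread (SD 0.48 in MPP and 0.85 in CDP), while the treated arrays of a group were close together and far above them.

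At 2, 4 and 8 h no gene of the 19938 had a larger log2 fold change than Pmepa1, in MPP or in CDP. At 2 h the change was 3.56 ± 0.12 in MPP (11.8-fold, adjusted p = 4.30e-11) and 3.80 ± 0.23 in CDP (13.9-fold, adjusted p = 3.41e-07). At 12 and 24 h it ranked 2 in MPP, and 3 and 5 in CDP. The sizes rest on the untreated arrays: at 2 h in CDP the change was between 3.44 and 4.22 when any 1 array was left out.

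The level of Pmepa1 was close to its final value from the first time on. At 2 h its change had reached 86.3% of the 24 h change in MPP and 90.4% in CDP, on the log2 scale. From 2 to 24 h it rose by 0.56 ± 0.12 in MPP (adjusted p = 0.00515), under 2-fold and so not called. It did not pass an adjusted p of 0.01 when any 1 array of either group was left out or without the replicate block (adjusted p = 0.0870). In CDP the same difference was 0.40 with a 95% interval of -0.10 to 0.91.

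Ldlrad4, a relative of Pmepa1 with the same kind of Smad-binding tail, rose in both cell types. In MPP it read 9.90, 9.75 and 9.52 untreated, 11.46, 11.22 and 11.08 at 2 h, and 12.23, 11.94 and 11.96 at 24 h. In CDP it read 10.14, 10.27 and 9.99 untreated, 12.13, 12.07 and 11.63 at 2 h, 12.52, 12.45 and 12.33 at 8 h, and 12.30, 12.29 and 12.16 at 24 h. No treated array overlapped with an untreated one of its cell type, and in CDP every 24 h array was below every 8 h array.

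In MPP the change of Ldlrad4 rose at each time, from 1.53 ± 0.05 at 2 h (2.89-fold, adjusted p = 2.12e-11) to 2.32 ± 0.05 at 24 h (5.0-fold, adjusted p = 4.34e-14), a difference of 0.79 ± 0.05 between 24 and 2 h (adjusted p = 2.41e-08). In CDP it was 1.81 ± 0.07 at 2 h, highest at 8 h with 2.30 ± 0.07, and 2.11 ± 0.07 at 24 h (4.33-fold, adjusted p = 1.10e-10). The difference of 24 and 2 h in CDP was 0.30 ± 0.07 (adjusted p = 0.00703), and it did not pass without the interferon-high array (0.20, adjusted p = 0.0332) or without the replicate block (adjusted p = 0.0736). At 2 h the change had reached 66.0% of its 24 h size in MPP and 85.6% in CDP.

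Counted together, and without a minimum fold, 2 of the 7 were higher at 24 than at 2 h in MPP (Pmepa1 and Ldlrad4), where 4.2% of all genes were, and 4 of the 7 in CDP (Smad7, Smurf1, Smurf2 and Ldlrad4), where 7.97% were. Smad6 was the 1 member lower in each, but without the interferon-high CDP array at 2 h Bambi passed as lower in CDP too (-0.28, adjusted p = 0.00668, against -0.20 and 0.0518 with it).

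**Figure D3:**
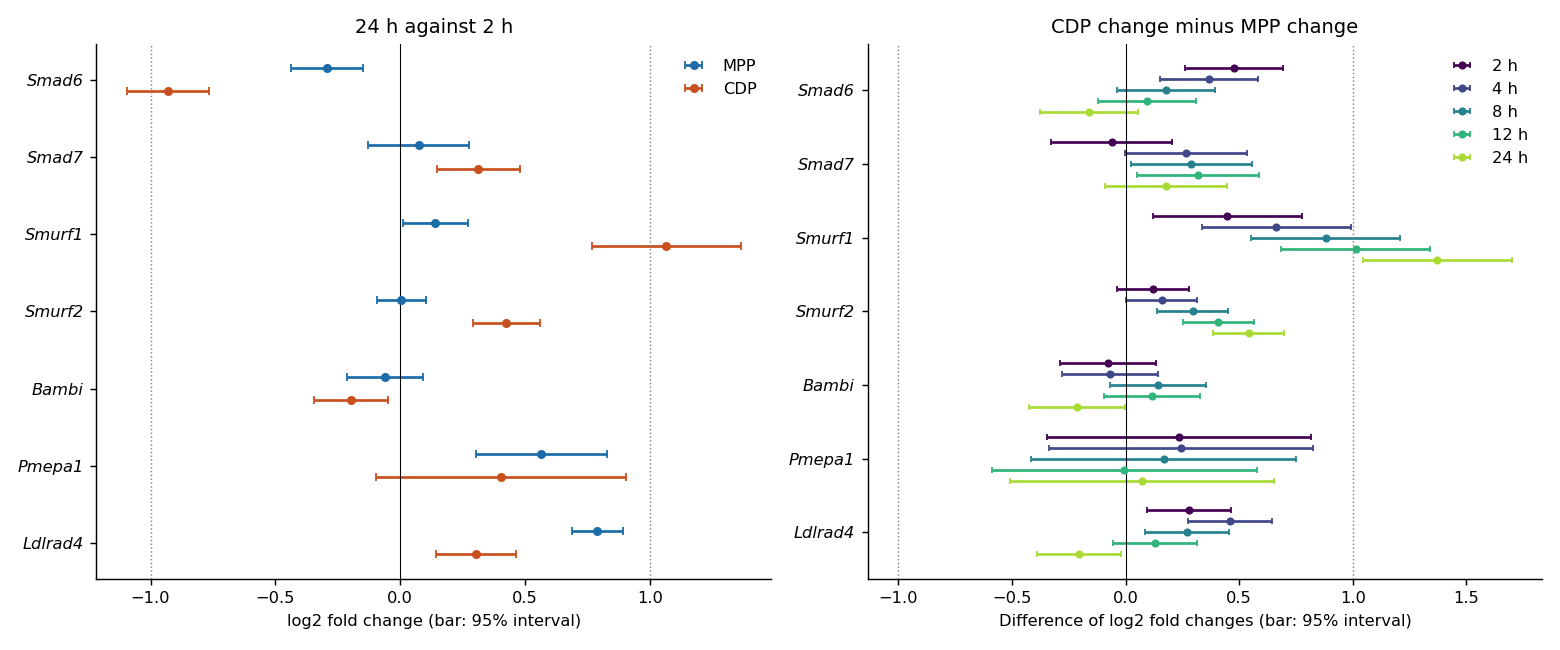
On the left, the log2 fold change of 24 h against 2 h is plotted for each gene in MPP (blue) and CDP (orange); on the right, the CDP change against 0 h minus the MPP change is plotted at each time (colour), with 95% intervals as bars and dotted lines at 2-fold. Smad6 lies left of 0 and Smurf1 right of it in CDP on the left, and on the right the Smurf1 values move from 0.45 at 2 h (0.23 without the 2 interferon-high arrays) to 1.37 at 24 h.

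Before treatment, and without a replicate block, no difference between the cell types passed the test for the 7 genes. In that fit limma called 0 of them, while 2.81% of all genes were called in either direction. Without a minimum fold 0 of them passed, while 1231 of the 19938 genes passed as higher in CDP and 1578 as lower. The lowest p-values of the 7 in it were those of Smad6 (-0.28, CDP minus MPP, adjusted p = 0.118), Smurf1 (0.31, adjusted p = 0.0954) and Ldlrad4 (0.41). The largest of these was Ldlrad4, at 0.41 ± 0.13 (95% interval 0.14 to 0.68, adjusted p = 0.0251), and its untreated arrays did not overlap between the cell types. With the replicate number as a block shared by both cell types, Ldlrad4 passed an adjusted p of 0.01 (0.000112). For Pmepa1 the spread of untreated arrays left an interval of -0.20 to 0.78.

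Whether the cell types responded by different amounts was tested as the CDP change minus the MPP change. None of the 7 was called at 2, 4 or 8 h, where 0.0301%, 0.14% and 0.411% of all genes were called in either direction. Smurf1 was called at 12 h, with a difference of 1.01 ± 0.16 (adjusted p = 0.000121), and at 24 h, with 1.37 ± 0.16 (95% interval 1.04 to 1.70, adjusted p = 5.08e-07), and 0.256% and 0.722% of all genes were called higher there. The 12 h difference is at the 2-fold line, and dropped below it when any of 5 single arrays was left out, to 0.954 to 0.995. Without replicate 2 in all groups its adjusted p was 0.0245.

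Without a minimum fold, Ldlrad4 passed at 4 h (0.46 ± 0.09, adjusted p = 0.00558), where 0.301% of all genes did, but not after median centring (adjusted p = 0.0154) or without any 1 of 8 of the 12 arrays compared. Smurf1 was the 1 member that passed at 8 h (0.88 ± 0.16, adjusted p = 0.00116; 0.813% of all genes). Smurf2 passed together with Smurf1 at 12 h (0.41 ± 0.08, adjusted p = 0.000953; 1.21%) and at 24 h (0.54 ± 0.08, adjusted p = 9.46e-06; 3.03%). The other probe set of Smurf2 did not pass at 12 or 24 h (0.32 and 0.44, adjusted p = 0.212 and 0.0194). Smurf1 at 4 h missed (0.66 ± 0.16, adjusted p = 0.0328) and passed without the 2 interferon-high arrays (0.67, adjusted p = 0.00355). Without the replicate block, of these only the Smurf1 values at 12 and 24 h and the Smurf2 value at 24 h passed.

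For the rest no difference of responses passed. The difference of Smad6 at 2 h was 0.48 ± 0.10 (adjusted p = 0.0382). It was 0.57 without CDP replicate 1 at 2 h (adjusted p = 0.00750) and 0.34 without the 2 interferon-high arrays (adjusted p = 0.369). At 24 h it was -0.16 (95% interval -0.38 to 0.05). For Smad7 the differences lay between -0.06 and 0.32, and for Bambi between -0.21 and 0.14. Those of Pmepa1 lay between 0.00 and 0.25, with intervals as wide as -0.51 to 0.66 at 24 h, which leaves room for a difference of either sign. Neutrophil and mast cell markers differ between the cell types as given above, and their part in these differences was not tested.

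Over the means of the 12 groups, the courses of the 7 genes were compared by correlations. These are given without a test, since the groups share arrays, cell types and times. Smad7, Pmepa1 and Ldlrad4 moved together (r = 0.97 for Smad7 with each of the others, and 0.96 between those), as did Smurf1 and Smurf2 (r = 0.93). Between these sets r was also positive, from 0.59 (Pmepa1 with Smurf1) to 0.85 (Smad7 with Smurf2), so they are not sharply separate. For Smad7, Pmepa1 and Ldlrad4 the largest step between ordered group means lay between untreated and treated groups (1.04, 3.27 and 1.12). That step weighs heavily in their r, which says less about likeness among the treated groups. Smad6 gave r = 0.73 with Pmepa1, 0.66 with Smad7, 0.61 with Ldlrad4, 0.26 with Smurf2 and 0.08 with Smurf1. For Bambi r lay between -0.73 (with Smurf1) and 0.17 (with Smad6). When the 12 group levels of a gene were put in order, 11 of 11 neighbouring pairs had overlapping arrays for Bambi, 10 for Smad6, Smad7 and Smurf2, 9 for Pmepa1 and Ldlrad4, and 7 for Smurf1.

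Among the 2097 genes whose group means ranged over at least 1 unit, those most like each called member were named by Pearson's r over the 12 means. Smad6 was most like Ski (0.93), a nuclear corepressor of Smads, then Usp2 (0.89) and Luzp1 (0.88). Smad7 was most like Spsb1 (0.98), Skil (0.98) and Pmepa1 (0.97). Smurf1 was most like Kctd14 (0.99), Bend6 (0.98) and Disp1 (0.98). Pmepa1 was most like Tmem119 (0.98), Smad7 and Ldlrad4 (0.96), and Ldlrad4 was most like Tmem119, the receptor gene Tgfbr1 and Golm1 (0.98 each).

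The rest of the pathway was followed through 8 lists of ligands, receptors, Smads, corepressors, ligases, deubiquitinases and phosphatases, adaptors and target genes, with 84 genes of which 80 were measured. At 2 h 4 of the 80 were called higher and 0 lower in each cell type, and these were Tgfbr1, Ski, Skil and Spsb1 in both. At 24 h 7 were called higher and 0 lower in MPP, and 5 higher and 3 lower in CDP. Of all genes, 0.271% in MPP and 0.326% in CDP were called in either direction at 2 h, and 1.2% and 3.14% at 24 h. In CDP at 24 h, 270 of the 19938 genes were called higher and 357 lower. The median change over the 80 genes was 0.05 and 0.02 at 2 h in MPP and CDP, and 0.00 and 0.04 at 24 h, beside 0.02, -0.01, -0.01 and 0.00 over all genes.

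Among the 13 receptors, the type I receptor gene Tgfbr1 rose with the inhibitors, by 1.09 ± 0.07 at 2 h and 1.62 ± 0.07 at 24 h in MPP, and by 1.89 ± 0.09 and 2.10 ± 0.09 in CDP. Eng, the coreceptor endoglin, was called higher at 12 and 24 h in MPP (1.06 ± 0.07 at 24 h) and at 8 and 12 h in CDP. The type II receptor gene Tgfbr2 was called at 24 h in CDP (1.16 ± 0.10). None of the 12 measured ligands was called.

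Of the 6 receptor-activated Smads and Smad4, Smad3 alone was called, lower in CDP at 8, 12 and 24 h (-1.96 ± 0.08 at 24 h, adjusted p = 6.20e-10). Of the 6 measured corepressors, Skil rose in both cell types at 2 h (1.65 ± 0.09 in MPP and 1.92 ± 0.12 in CDP) and stayed high at 24 h (1.60 and 1.79). Ski rose by 1.48 ± 0.06 in MPP and 1.65 ± 0.09 in CDP at 2 h. At 24 h it was 1.41 in MPP and 0.77 in CDP, where it was no longer called.

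Of 10 other HECT and RING ligases and of 12 deubiquitinases and phosphatases, none was called at any time in either cell type. The share of all genes called in either direction was between 0.271% (MPP at 2 h) and 3.14% (CDP at 24 h), so no call among so few genes is near the background. Of the 9 receptor adaptors, Dab2 was called lower in CDP at 24 h (-1.72 ± 0.19). Of the 14 measured target genes, the SOCS box gene Spsb1 rose in both cell types at 2 h (2.74 ± 0.09 in MPP and 2.31 ± 0.12 in CDP) and was called at 24 h too. The integrin gene Itgae (3.47 ± 0.12 in MPP and 4.88 ± 0.16 in CDP) was called at 24 h and not at 2 h. Hes1 rose at 24 h in MPP (1.67 ± 0.10), and Tgfbi fell at 24 h in CDP (-1.17 ± 0.11).

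**Figure D4:**
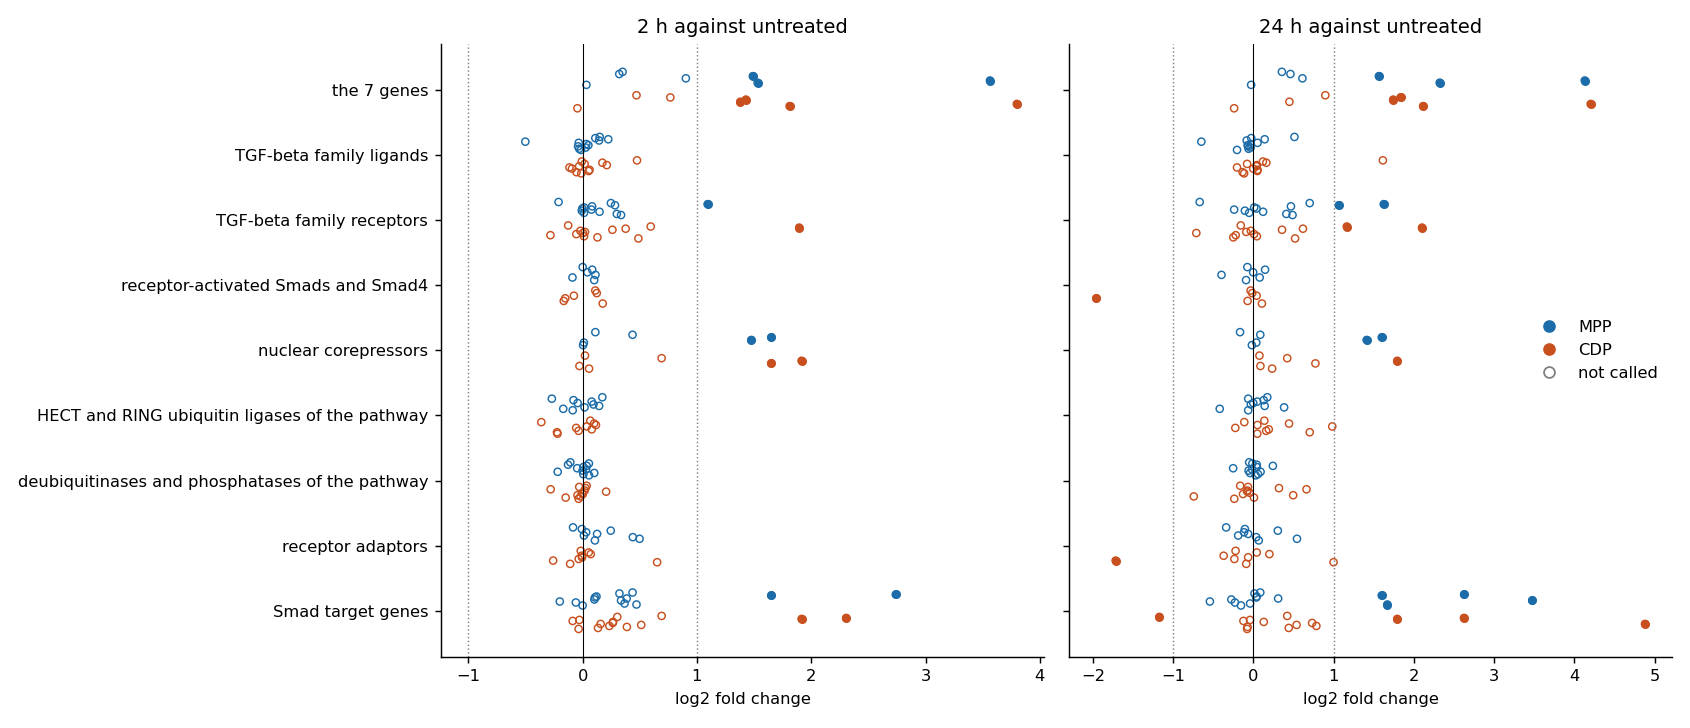
The log2 fold change against untreated cells at 2 h (left) and 24 h (right) is plotted for the 7 genes (top row) and for the measured genes of the 8 pathway lists, 1 point per gene, MPP in blue and CDP in orange; filled points were called and dotted lines mark 2-fold. At 2 h called genes outside the top row are found among receptors, corepressors and target genes, and none is called among ligases or among deubiquitinases and phosphatases at either time.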

How the data were processed

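The deposited values are log2 intensities of 35556 probe sets on 36 Affymetrix Mouse Gene 1.0 ST arrays, made by the authors with Affymetrix Power Tools and RMA (background correction, quantile normalization, summary per probe set), with no version given. RMA compresses changes of dim genes and removes any difference in total signal, so that a change is relative to the rest of an array. The number of arrays limits the precision. One protocol text differs from the titles on the 8 h time, and the titles were followed. Of 21789 probe sets with 1 symbol, the one with the highest mean per gene gave 19938 genes.

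limma 3.58.1 in R 4.3.3 (lmFit, eBayes; two-sided) was run on all genes with Benjamini-Hochberg adjustment over all of them. Within a cell type, 18 arrays were fitted with the replicate number as a block, as in the study's methods. Same-numbered arrays pair with 0 h by the residuals, with all 15 correlations above 0.1 in each cell type (lowest 0.189 in MPP and 0.212 in CDP), although 2 of the 45 pairs among CDP arrays were not. Untreated cell types were compared on 36 arrays without a block, and the difference of responses on 36 arrays with the replicate within cell type as a block. Same-numbered untreated MPP and CDP arrays were correlated by the residuals too (0.513, 0.283 and 0.417 for replicates 1 to 3). Over all times 11 of 18 such pairs of the 2 cell types were above 0.1. The untreated comparison without a block leaves this pairing out. The study calls the replicates biological. The 7 genes, the pathway lists and the marker lists were chosen with earlier results of these data known. Named were all 7 genes, pathway genes called at 2 or 24 h, and the 3 genes most like each called member. Alternatives were the block, the fit on all arrays, a filter on dim genes, 2 rescalings, 2 variance settings, the fold rule, the choice of probe set and leaving out arrays.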

Additional observations from a re-analysis of the deposited data

Results flagged for a closer look

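The response of Smurf1 differed between CDP and MPP by the test of the difference itself, by 1.01 on the log2 scale at 12 h and by 1.37 at 24 h, as the CDP change minus the MPP change. When any 1 array compared was left out, the values were between 0.954 and 1.08 at 12 h and between 1.25 and 1.48 at 24 h. Neutrophil and mast cell markers were higher in all MPP than in all CDP arrays, and their part in the difference was not tested.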

How the results depend on the processing

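The numbers of members called were unchanged, or within 1.5 times, under a fit on all 36 arrays, a filter on dim genes, median centring, quantile normalization again, an intensity trend with robust variances, the test of all single-symbol probe sets, the fit with no replicate block (3 of 7 in MPP and 4 of 7 in CDP at each time) and, for the untreated comparison, the shared replicate block (0 called). All 38 calls of a single member held under these settings and without the 2 interferon-high arrays, an alternative chosen after seeing the data. Leaving these arrays out moves the change only in comparisons with untreated MPP or CDP at 2 h. In other comparisons only the error and the adjusted p can move, as for Bambi in CDP at 24 h. Rescaling moved the median of all genes by at most 0.0534. With no minimum fold, 6 members passed at every time and over the time course in MPP, 3 between 24 and 2 h in MPP and 5 in CDP, and the response difference gave 1 at 4 h, 1 at 8 h, 2 at 12 h and 2 at 24 h. With limma's treat against 2-fold, 2 members passed in CDP at 2 h, 0 between 24 and 2 h in CDP, and 0 for the response difference at 12 h and at 24 h. When 1 replicate or array was left out, the response difference at 12 h gave 0 to 1 members and CDP 24 h against 2 h gave 0 to 1. Of the 38 calls, 12 did not pass under treat, so for these a change beyond 2-fold is not shown. Without replicate 1, 2 or 3, the calls lost numbered 2, 1 and 1. No change of direction occurred among the 38 calls. The replicate block decided 16 passes without a minimum fold, which were lost without it, 7 of them at 24 h against 2 h or in the response difference.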

Other observations

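Pathway genes that changed only at times between 2 and 24 h, or that missed the test narrowly, were not described above. Cav1, which encodes the membrane scaffold caveolin, was called higher at 4, 8 and 12 h in both cell types, with its highest value at 12 h in MPP (1.38 ± 0.15, adjusted p = 7.48e-06) and at 8 h in CDP (1.63 ± 0.27, adjusted p = 0.000620), and it was not called at 24 h (0.54 in MPP and 1.00 in CDP). Among the ligases Traf4 came nearest to a call, at 0.98 ± 0.06 in CDP at 24 h (adjusted p = 3.27e-08). Nedd4, a relative of the Smurfs, was at -0.69 ± 0.09 in CDP at 8 h (adjusted p = 8.83e-05) and at 0.70 ± 0.09 at 24 h (adjusted p = 2.89e-05). The ligand gene Tgfb3 was at 1.61 ± 0.43 in CDP at 24 h (adjusted p = 0.0102), with a standard error far above those of the other genes named here.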
